A study of Mus musculus with 24 samples.

Results

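Small nucleolar RNA (snoRNA) genes were followed in nascent RNA of E14TG2a mouse embryonic stem cells. The genes were chosen by name: every gene of the deposited table whose mapped symbol begins with Snora or Snord and a digit, and whose deposited value was not 0 in at least 6 of 9 columns. This gave 49 of the 56941 genes in the table. The name rule found 107 listed genes in all, and no gene lay near the threshold: 49 had a value in all 9 columns and 58 were listed at 0 in all 9. The 49 comprised 35 box C/D genes (Snord) and 14 box H/ACA genes (Snora) on 18 chromosomes.

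The cells carried 1 of 3 genotypes: Alkbh5 del-cIDR (dcIDR), in which a stretch named cIDR was deleted from Alkbh5, the Alkbh5 knockout (KO), and wild type (WT). Alkbh5 is an RNA demethylase that removes the methyl mark m6A, and the series' title names intrinsically disordered regions of demethylases as its subject. All 24 libraries came from the same cell line, grown with serum, LIF and the inhibitors PD0325901 and CHIR99021, and labelled with 1 mM ethynyl uridine (EU), a uridine analogue that is built into new RNA and then captured, for 10, 20, 40 or 60 min. Each genotype and time had 2 libraries. Neither the number of clones behind each line nor whether paired libraries came from separate cultures is given in the sources used here (8 dishes are mentioned but not tied to libraries), so p-values measure the spread between these libraries, which may be technical.

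SnoRNAs are short stable RNAs of the nucleolus. Box C/D snoRNAs, bound by fibrillarin, Nop56, Nop58 and Snu13, guide ribose methylation of ribosomal and spliceosomal RNA. Box H/ACA snoRNAs, bound by dyskerin (Dkc1), Nhp2, Nop10 and Gar1, guide conversion of uridine to pseudouridine. In mammals most are cut out of the introns of host genes, many of which encode ribosomal proteins or other translation factors, while a few, such as Snord118 and Snord13, have promoters of their own.

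Of the 49 genes, 46 lay inside a host gene on the same strand in the GENCODE M21 annotation and 3 did not, Snord13, Snord118 and Snora57. Within hosts, 39 sat in an intron and 7 overlapped an annotated exon. Among the 58 genes listed at 0, 9 sat in an intron, 45 overlapped an exon of a same-strand gene and 4 had no host. Snord14a in Rps13, Snord15b in Rps3 and Snora73a in Snhg3 were listed at 0 and overlapped an exon, whereas Snora73b lay in an intron of Snhg3 and was listed at 0 too. How the authors' counting treated reads that fit more than 1 gene is not given in the sources used here. The 49 genes were 64 to 238 nt long, with a median of 85 nt for box C/D and 134 nt for box H/ACA. GENCODE M21 classes Snord43, an entry of 108 nt, as a microRNA gene and the rest of the 49 as snoRNA genes. Here it was counted as box C/D by its symbol.

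The transcript sequences below are those of 9 genes on which the results turn, from the GENCODE M21 transcripts of build GRCm38, with capitals on the letters TGATGA (the core of box C, where it lies in the first part of the RNA) and CTGA (box D, where it lies within 20 bases of the end) or, in box H/ACA RNAs, on ACA when 3 bases follow it. In the first group are 5 box C/D genes from introns, of which Snord43 and Snord83b share the host Rpl3.
Snord17: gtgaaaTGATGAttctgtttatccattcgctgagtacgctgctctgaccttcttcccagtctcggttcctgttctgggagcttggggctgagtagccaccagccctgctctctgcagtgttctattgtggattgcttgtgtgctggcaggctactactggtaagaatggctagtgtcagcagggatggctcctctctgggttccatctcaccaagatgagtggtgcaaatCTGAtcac
Snord43: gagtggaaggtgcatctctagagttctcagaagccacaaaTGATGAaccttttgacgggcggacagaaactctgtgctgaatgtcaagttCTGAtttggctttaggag
Snord83b: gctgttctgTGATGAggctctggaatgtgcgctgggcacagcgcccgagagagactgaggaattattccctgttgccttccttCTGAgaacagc
Snord53: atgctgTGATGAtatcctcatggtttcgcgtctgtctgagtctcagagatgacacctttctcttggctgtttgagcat
Snord71: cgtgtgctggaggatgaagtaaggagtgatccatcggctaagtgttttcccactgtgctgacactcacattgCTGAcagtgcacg
Snord98 and Snord89 are box C/D genes with fewer reads.
Snord98: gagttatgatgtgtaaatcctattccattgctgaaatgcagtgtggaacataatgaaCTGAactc
Snord89: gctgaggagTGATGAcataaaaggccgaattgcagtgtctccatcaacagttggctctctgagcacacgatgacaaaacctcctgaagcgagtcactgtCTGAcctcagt
Snora57 is a box H/ACA gene that fell in dcIDR cells.
Snora57: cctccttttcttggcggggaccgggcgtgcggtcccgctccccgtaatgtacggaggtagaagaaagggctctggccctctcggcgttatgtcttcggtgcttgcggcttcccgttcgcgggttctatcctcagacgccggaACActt
Snord118, a box C/D gene, lies outside any host, as does Snora57.
Snord118: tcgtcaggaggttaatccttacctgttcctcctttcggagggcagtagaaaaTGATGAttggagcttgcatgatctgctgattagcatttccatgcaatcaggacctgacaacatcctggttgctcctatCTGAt
On the strand of the RNA, TGATGA occurred in 26 of the 35 box C/D genes (74.3%) and in none of the 14 box H/ACA genes, against 26.1% of all 1507 snoRNA transcripts of the annotation. CTGA occurred in all 35 box C/D genes, 7 of the 14 box H/ACA genes and 79.5% of all snoRNA transcripts. ACA ended 3 bases before the 3′ end in 13 of the 14 box H/ACA genes, 0 of the box C/D genes and 18.3% of all snoRNA transcripts. Among the genes listed at 0, TGATGA occurred in 24 of 35 box C/D genes (68.6%) and the ACA in 17 of 23 box H/ACA genes (73.9%).

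The libraries held 3129083 to 22159864 gene reads, worked out from the deposited ratios as described under the processing, and 770 to 4770 reads on the 49 genes. The 2 dcIDR libraries at 10 min were the shallowest for snoRNA genes, with 1058 and 770 reads. All 8 stem cell markers had reads in every library, and their sum was 3399 to 3781 RPM (reads per 1000000 gene reads of the library) in dcIDR, 3277 to 3702 in KO and 3547 to 3763 in WT. The 7 fibroblast markers summed to 6.99 at most, the 5 endoderm markers to 9.49 and the 5 trophoblast markers to 9.71. Markers moved with genotype in 1 list: the 4 neural markers summed to 106 to 144 RPM in dcIDR, 265 to 367 in KO and 154 to 185 in WT, and their part in the snoRNA results was not tested. Alkbh5 itself was lower in dcIDR (61.7 to 109 RPM) and KO (60.9 to 95.9) than in WT (95.7 to 150), with log2 differences from WT of -0.46 and -0.60. Each range covers 8 libraries, and in WT its reads could be worked out clearly in 6 of them. Reads on the gene were present in KO cells, and gene totals do not show whether the deleted part was transcribed.

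Reads on the 49 genes were unevenly spread. The 8 genes with most reads took 51.0% of them, and 24 genes averaged under 30 reads per library. Compared per annotated length, Snord43 (an intron of Rpl3, annotated as a microRNA gene) was highest, with 17.4 RPM per 100 nt. Snord17 (Snx5) followed with 14.8, Snora62 (Rpsa) with 11, Snora31 (Tpt1) with 9.99, Snord35a (Rpl13a) with 9.07 and Snord73a (Rps3a1) with 8.6. The median of the 49 genes was 2.83, with 3.74 for box C/D genes and 1.68 for box H/ACA genes. Without regard to length, Snord17, the longest of the 49 at 238 nt, averaged 35.2 ± 8.53 RPM (SD over 24 libraries) and Snord43 averaged 18.7 ± 6.72. At the low end, Snord23, Snord61, Snord66, Snord67, Snord90 and Snord111 averaged 2.54 to 6.75 reads per library and were not tested, which left 43 genes in the tests below.

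At longer labelling times snoRNA genes took a smaller share of the labelled RNA. They held 0.0246 to 0.0292% of gene reads in the 6 libraries at 10 min, 0.0247 to 0.0278% at 20 min, 0.0187 to 0.0224% at 40 min and 0.0167 to 0.0196% at 60 min. No library at 40 or 60 min reached a share seen at 10 or 20 min. The means at 10 and 60 min were 0.0255 ± 0.00127 and 0.0191 ± 0.00065% in dcIDR, 0.0271 ± 0.00102 and 0.0172 ± 0.000748% in KO and 0.0288 ± 0.000563 and 0.0183 ± 0.000329% in WT (SD, n = 2 each). In each genotype both libraries at 60 min lay below both at 10 min. Without the 8 genes with most reads the sum of the other 41 moved the same way, at 119 to 135 RPM at 10 min and 87.0 to 103 at 60 min. Relative to the spike-in, which counts new RNA per added Drosophila RNA, the order was the reverse: the summed level of the same genes was 750 to 2173 at 10 min and 3320 to 4810 at 60 min.

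**Figure D1:**
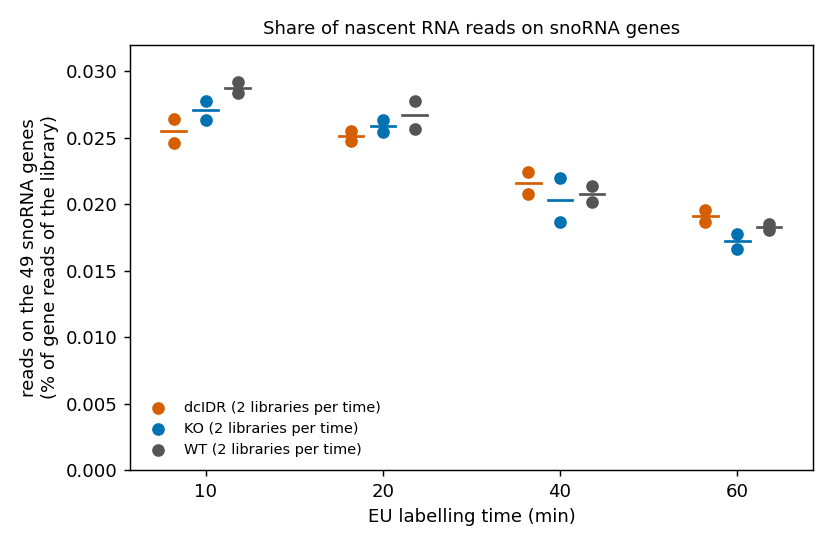
Share of gene reads that fell on the 49 snoRNA genes, in percent, by EU labelling time in minutes; each point is a library and each short line the mean of both. All 6 libraries at 60 min (0.0167 to 0.0196%) lie below all 6 at 10 min (0.0246 to 0.0292%).

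Gene by gene, the slope with labelling time was estimated over the 3 genotypes as the change in log2 level, relative to the median tested gene of the library, per doubling of the labelling time. By limma with Benjamini-Hochberg adjustment over 22448 genes, 23 of the 43 snoRNA genes passed an adjusted p of 0.05, beside 55.8% of all tested genes. Of the 43, 8 rose and 15 fell, against 36.1% of all genes that rose and 19.7% that fell, and their median slope was -0.05 against 0.04 for all genes. On the spike-in scale, where the median gene itself rose by 0.84 per doubling of time, all 43 rose, beside 99.2% of all genes, with a median of 0.76, so each fall described here is a rise slower than that of the median gene. By class, 5 of 29 tested box C/D genes rose and 11 fell, and 3 of 14 box H/ACA genes rose and 4 fell.

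Within single genotypes, estimated from 8 libraries each, the counts were smaller. In dcIDR 6 of the 43 rose and 7 fell, beside 30.5% of all genes that rose and 14.1% that fell (44.6% in all). In KO 0 rose and 9 fell, beside 20.7% and 7.2% (27.9% in all), and in WT 2 rose and 11 fell, beside 26.1% and 9.68% (35.7% in all). Snord43 and Snora21 fell in each genotype: Snord43 with slopes of -0.37 in dcIDR, -0.36 in KO and -0.38 in WT, and Snora21 with slopes of -0.32 in dcIDR, -0.47 in KO and -0.29 in WT. Snord53 rose in dcIDR (0.53 ± 0.10) and WT (0.37 ± 0.10) but did not pass in KO. The test of the difference of slopes between genotypes passed for Snora62 alone, as described below with its values, so the other counts do not show that a gene's slope differed between genotypes.

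The 14 snoRNA genes in hosts that encode ribosomal proteins had 0 that rose and 9 that fell, with a median slope of -0.25. Of all tested genes, 36.1% rose and 19.7% fell. Snord43 in Rpl3 had 22.8 to 29.2 RPM at 10 min (median 27.4) and 9.79 to 13.6 at 60 min (median 12.3), so the times did not overlap. Its slope was -0.37 ± 0.03 (SE; adjusted p = 1.27e-09). The host Rpl3, the gene of a protein of the large ribosomal subunit, sloped by -0.17, and Snord83b, from another intron of Rpl3, by -0.29 ± 0.06. Snora69 in Rpl39 (-0.39), Snora21 in Rpl23 (-0.36), Snord72 in Rpl37 (-0.33), Snord42b in Rpl23a (-0.26), Snord15a in Rps3 (-0.23) and Snora62 in Rpsa (-0.23) also fell; Snord42b lost its call without any of 7 single libraries (-0.15 without the dcIDR library B at 10 min, adjusted p = 0.165). In Rpl13a, Snord34, Snord32a and Snord35a had slopes of -0.13, -0.09 and 0.05 and did not pass. Their host had the flattest slope of the 11 ribosomal protein hosts, -0.06, and all 11 hosts fell, with a median of -0.24.

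Of the 26 tested genes in other hosts, 8 rose and 4 fell, beside 36.1% and 19.7% of all genes, with a median slope of 0.02. Snord53 and Snord89 had the steepest rises, at 0.36 ± 0.06 and 0.37 ± 0.14. Snord53, in an intron of the ribosome biogenesis gene Wdr43, had 2.50 to 4.96 RPM at 10 min and 6.22 to 8.22 at 60 min, again with no overlap. Snora47 in Zbed3 (0.29), Snora30 in Gm42715 (0.27), Snord98 in Ccar1 (0.26), Snord71 in Ap1g1 (0.26), Snora5c in Tbrg4 (0.25) and Snord91a in Tsr1 (0.19) rose as well. Of their 23 tested hosts, 16 rose and 3 fell, with a median slope of 0.15. A pseudocount understates changes of genes with few reads, so that alternative cannot compare the firmness of rises and falls. With a pseudocount of 4, Snora30, Snora47, Snora5c, Snord89 and Snord98 had slopes of 0.07 to 0.13 and no longer passed. The same 5 genes lost their calls without single libraries, Snora30 and Snord98 without any of 15. The slope of Snora30 was 0.13 without the WT library B at 10 min, and that of Snord98 was 0.11 without the dcIDR library B at 10 min. Snord53, Snord71 and Snord91a kept their calls without each single library. Among the snoRNA genes that fell, Snord42b alone lost its call without single libraries.

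Both genes outside hosts that passed fell. Snord13, the U13 RNA, which guides acetylation of small-subunit ribosomal RNA in human cells, had the steepest fall of the 43, at -0.42 ± 0.11 (adjusted p = 0.00205). Its libraries held 1.71 to 4.99 RPM at 10 min and 0.54 to 2.16 at 60 min, which overlap. Snord118, the U8 RNA needed to process large-subunit ribosomal RNA, had a slope of -0.29 ± 0.08, with 4.10 to 11 RPM at 10 min and 2.54 to 6.92 at 60 min. Snora57 had a slope of -0.16 ± 0.08 and did not pass (adjusted p = 0.0885).

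The remaining genes in other hosts had slopes that did not pass. Snora41 in Eef1b2 (-0.12 ± 0.07) and Snord37 in Eef2 (-0.10 ± 0.11) lie in genes of translation elongation factors. Snora31 in Tpt1 was measured with a smaller error than these, with a slope of 0.00 ± 0.04, while Tpt1 fell (-0.14). It had 9.24 to 17.1 RPM at 10 min (median 13.4), 12.5 to 15.7 at 20 min, 10.4 to 16.2 at 40 min and 9.84 to 12.3 at 60 min, so its times overlap. In Nop56 and Nop58, the box C/D core protein genes that are hosts themselves, Snord110, Snord11 and Snord70 had slopes of -0.03, -0.01 and 0.02, and none passed.

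Slopes of the snoRNA genes went along with those of their hosts. Over 39 pairs of a tested snoRNA gene and its tested host, with 34 different hosts, Pearson's r was 0.76 and Spearman's rho 0.75, given as a description because pairs share libraries and sometimes hosts. Within single genotypes r and rho were lower in KO (0.47 and 0.44) than in dcIDR (0.72 and 0.73) and WT (0.75 and 0.75). An unspliced host transcript also covers the snoRNA, so reads of the host's intron and of the snoRNA itself cannot be told apart in these totals. For Snora15, Snora2b, Snora5c and Snord42b, which overlap an annotated host exon, the same holds for reads of that exon. Some pairs parted. Snord82 (-0.39 ± 0.10) fell with its host Ncl (-0.09), the gene of nucleolin, whereas Snord17 (-0.21) and Snora23 (-0.15) fell while their hosts Snx5 (0.13) and Ipo7 (0.19) rose. The slope of Snora23 was -0.07 without the 10 min libraries and no longer passed (adjusted p = 0.251). Snord17 had 43.2 and 38 RPM in dcIDR, 46.3 and 53.9 in KO and 46.4 and 47.5 in WT at 10 min. At 60 min it had 25 and 30.6 in dcIDR, 22.6 and 27.3 in KO and 24.2 and 27.3 in WT, below every value at 10 min. Its slope was -0.08 ± 0.05 in dcIDR, which did not pass, -0.34 ± 0.05 in KO and -0.22 ± 0.05 in WT, and the differences of slopes from WT, 0.14 ± 0.07 in dcIDR and -0.12 ± 0.07 in KO, did not pass either. Per 1000 reads of Snx5, Snord17 had 85.0 to 125 reads at 10 min, 74.1 to 88.9 at 20 min, 51.0 to 71.6 at 40 min and 50.1 to 62.1 at 60 min. Per 1000 reads of Ipo7, Snora23 had 26.4 to 29.9 at 10 min, 23.4 to 26.5 at 20 min, 16.6 to 23.1 at 40 min and 13.9 to 17.2 at 60 min. In both pairs the 6 libraries at 60 min lay below the 6 at 10 min. Snord53 and Snord92 sit in introns of the same host, Wdr43 (0.31), and had slopes of 0.36 ± 0.06 and 0.00 ± 0.06, the second of which did not pass.

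**Figure D2:**
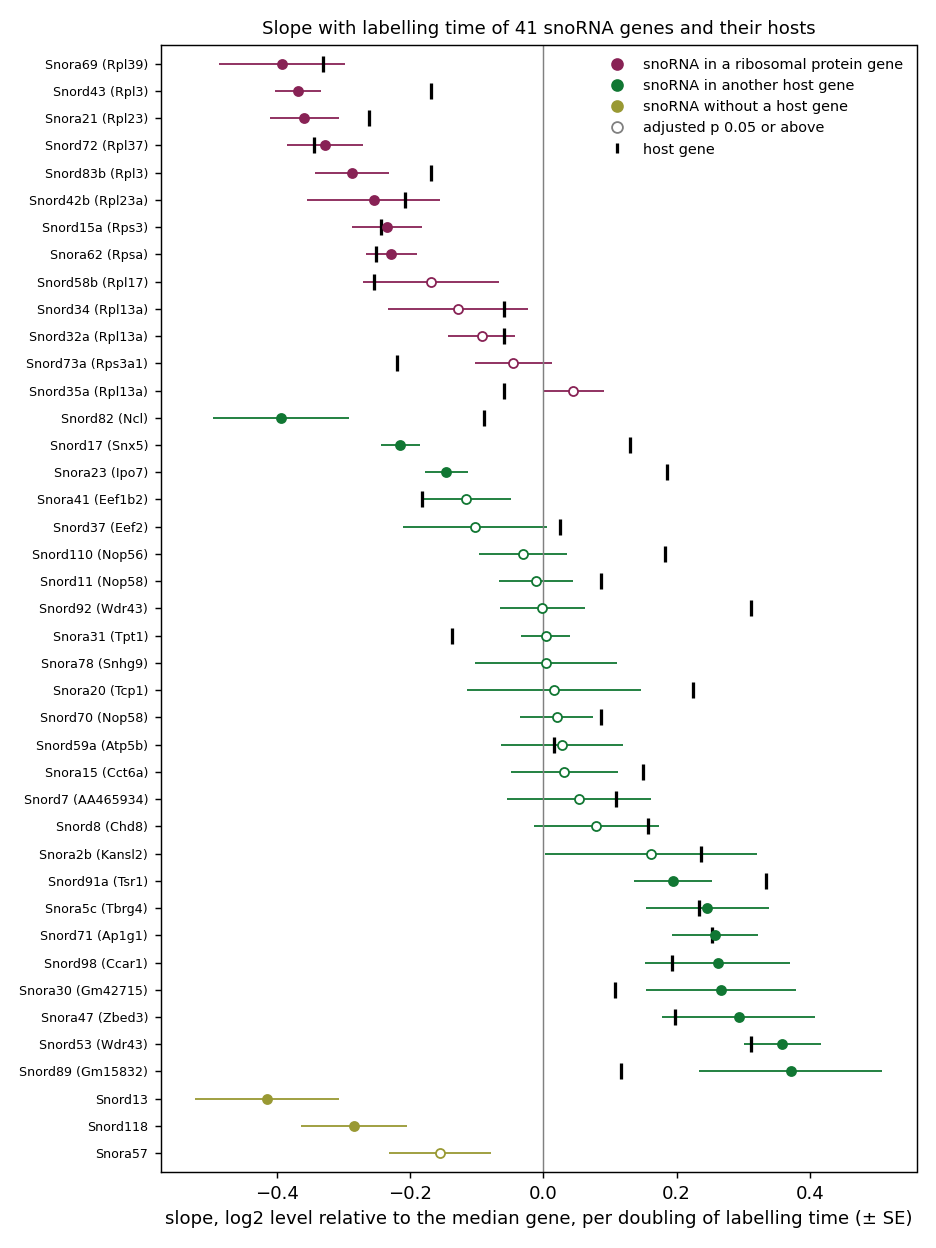
Slope of log2 level relative to the median gene per doubling of labelling time, with its SE, for 41 snoRNA genes named with their hosts; filled points passed an adjusted p of 0.05 and black ticks are the host genes. All ticks of ribosomal protein hosts drawn lie below 0, and Snord17 and Snora23 lie left of 0 with ticks right of it.

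The authors' deposited table gives ratios to 10 min of the same genotype. The reads per library were worked out from these ratios, so they are not separate evidence for the smaller share. At 20, 40 and 60 min the median log2 ratio of the 49 genes in the authors' deposited table was 2.39, 2.84 and 2.56 in dcIDR, beside 2.25, 2.85 and 2.66 for all 31118 genes with values in every column. In KO the authors' deposited table has medians of 0.43, 1.05 and 1.24 for the 49 genes and 0.42, 1.19 and 1.65 for all genes. In WT the authors' deposited table has 0.79, 1.65 and 1.74 for the 49 genes and 0.92, 1.98 and 2.05 for all genes. At 20 min, 20 of the 49 lay below the median gene in dcIDR, 24 in KO and 30 in WT in the authors' deposited table. At 40 min the authors' deposited table has 26 in dcIDR, 29 in KO and 34 in WT below it. At 60 min, 25 of the 49 lay below the median gene in dcIDR, 34 in KO and 34 in WT in the authors' deposited table. All ratios of a genotype share its 10 min libraries.

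Between genotypes few snoRNA genes passed, in tests with wider errors than those of most genes. For dcIDR against WT, averaged over the 4 times, 5 of 43 snoRNA genes passed, beside 27.8% of all tested genes (11.4% higher and 16.4% lower), and for KO against WT 2 of 43 passed, beside 32.1% (15.4% higher and 16.7% lower). All 5 in dcIDR were lower than in WT, whereas in KO 1 was higher and 1 lower. The median SE of a genotype difference was 0.16 for the 43 genes and 0.11 for all genes. The median difference of the 43 was -0.06 in dcIDR and -0.08 in KO, beside -0.02 and -0.01 for all genes. On the spike-in scale 0 of 43 passed in dcIDR and 1 in KO, beside 10.8% and 30.5% of all genes; at an unadjusted p under 0.05 by limma on the relative scale there were 6 in dcIDR and 3 in KO. Both comparisons share the WT libraries.

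**Figure D3:**
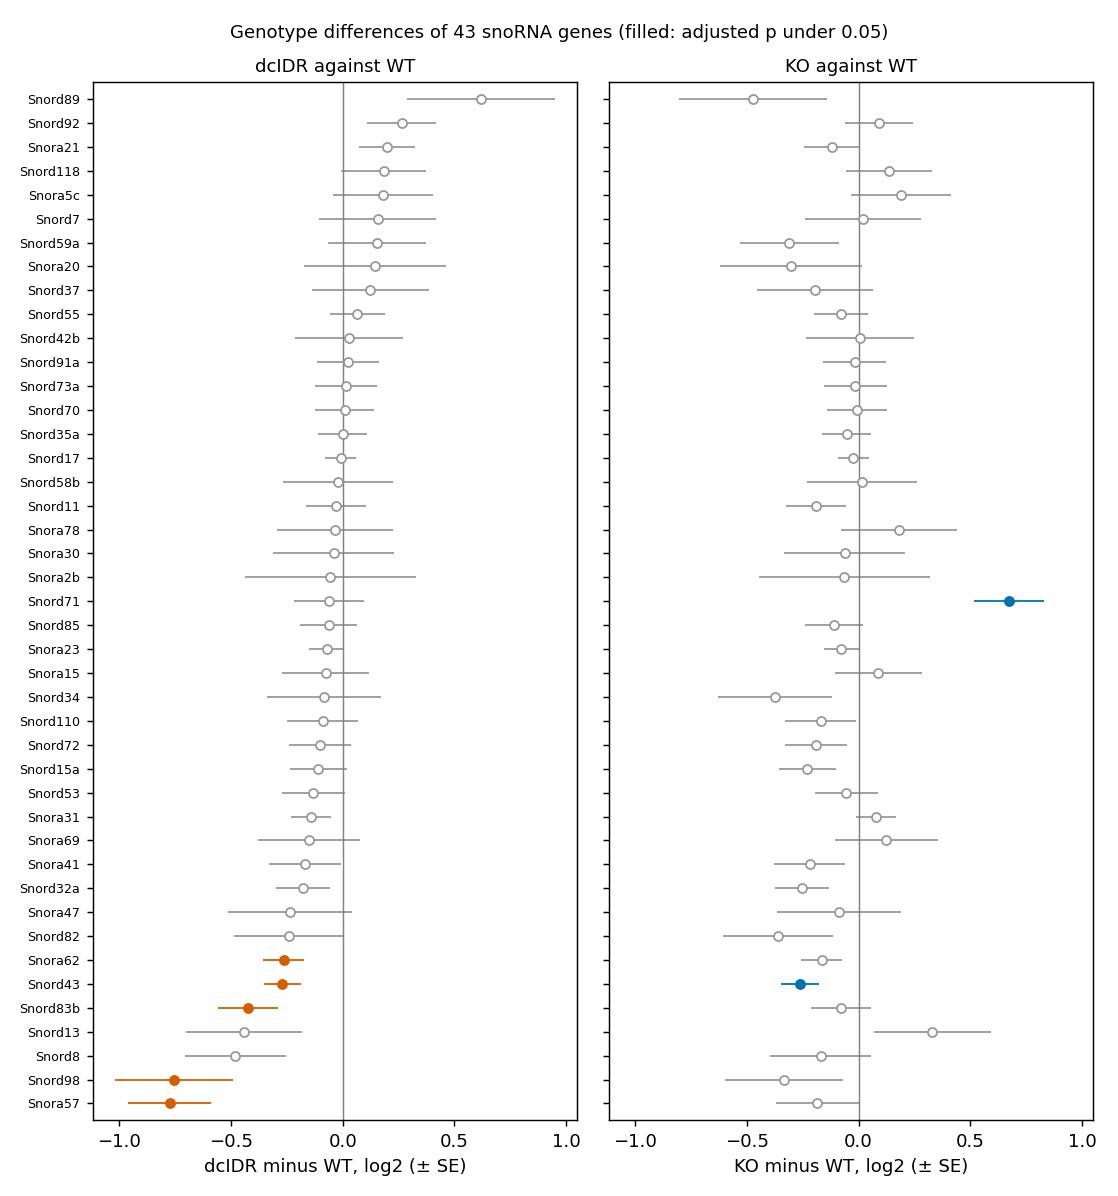
Log2 difference from WT in dcIDR (left) and KO (right) for 43 snoRNA genes with SE, averaged over 4 labelling times and relative to the median gene; genes are ordered by the dcIDR difference in both panels. Filled points passed an adjusted p of 0.05: 5 in dcIDR, all below 0, and 2 in KO, of which Snord71 is above 0.

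Snora57, the box H/ACA gene without a host, had the largest fall in dcIDR cells. At 10 min its 2 libraries held 2.25 and 0.959 RPM in dcIDR, 4.23 and 5.75 in KO and 4.19 and 3.45 in WT. At 40 min they held 1.65 and 1.95 in dcIDR, 1.35 and 2.38 in KO and 3.56 and 2.73 in WT, and at 60 min 1.78 and 1.99 in dcIDR, 2.35 and 2.33 in KO and 3.14 and 2.16 in WT. On the scale relative to the median gene, both dcIDR libraries lay below both WT libraries at all 4 times. The log2 difference of dcIDR from WT was -0.77 ± 0.19 (adjusted p = 0.0025) and of dcIDR from KO -0.59 ± 0.19 (adjusted p = 0.0113), while KO differed from WT by -0.18 ± 0.19 and did not pass. The reads behind this are few, 3 to 55 per library in dcIDR, 18 to 53 in KO and 13 to 61 in WT. Leaving out any single library kept both calls. On the spike-in scale dcIDR differed from WT by -0.60 (adjusted p = 0.0855), and without the 10 min libraries dcIDR differed from KO by -0.26 (adjusted p = 0.258).

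Snord43 and Snord83b, both from introns of Rpl3, were lower in dcIDR than in WT. Snord43 had 11.2 to 27.7 RPM in dcIDR (median 15.3), 9.79 to 23.6 in KO (median 18.1) and 12.7 to 32 in WT (median 19.3), over all 4 labelling times. Both dcIDR libraries lay below both WT libraries at each time on the relative scale. The difference from WT was -0.27 ± 0.08 in dcIDR (adjusted p = 0.0162) and -0.26 ± 0.08 in KO (adjusted p = 0.0169), and dcIDR and KO differed by -0.01 ± 0.08. Snord43 was the single snoRNA gene that passed in both comparisons with WT, which share those libraries. Without the WT library B at 20 min, which was the highest of all for Snord43 at 32 RPM, neither call held, at -0.21 in dcIDR (adjusted p = 0.0658) and -0.20 in KO (adjusted p = 0.0707). The dcIDR call was also lost without the dcIDR library B at 20 min (adjusted p = 0.0578), and the KO call without any of 3 other libraries (adjusted p = 0.0505 to 0.0587). On the spike-in scale, on which the median gene is higher than WT by 0.15 in dcIDR and 0.30 in KO, the values were -0.10 and 0.05.

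Snord83b had 3.22 to 8.67 RPM in dcIDR (median 5.10), 4.51 to 10.2 in KO (median 6.94) and 3.81 to 13.2 in WT (median 7.80). It was lower in dcIDR, with a log2 difference from WT of -0.43 ± 0.13 (adjusted p = 0.0186) and from KO of -0.35 ± 0.13 (adjusted p = 0.037). The host Rpl3 was lower as well, with differences of -0.15 in dcIDR and -0.12 in KO. Without the 10 min libraries the dcIDR difference from WT was -0.27 (adjusted p = 0.189), and it also missed the threshold without any of 4 single libraries, with adjusted p up to 0.0812. The difference from KO missed it without any of 12 single libraries.

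Snora62 and Snord98 were lower in dcIDR than in WT, in calls that did not hold without the 10 min libraries or without some single libraries of other times. Snora62, in an intron of the ribosomal protein gene Rpsa, had 15.0 and 15.0 RPM at 10 min in dcIDR, 23.9 and 13.7 in KO and 25.5 and 26.5 in WT. At 60 min it had 13.0 and 11.1 in dcIDR, 11.1 and 9.6 in KO and 11.2 and 12 in WT. On the relative scale Snora62 was lower in both dcIDR libraries than in both WT libraries at 10 min (-0.86 on average) and 20 min (-0.41). At 40 min Snora62 was higher in both dcIDR libraries (0.18). Its slope with time was -0.02 ± 0.07 in dcIDR, -0.26 ± 0.07 in KO and -0.41 ± 0.07 in WT. The difference of slopes between dcIDR and WT, 0.39 ± 0.09 (adjusted p = 0.0272), passed for Snora62 alone of the 43, beside 1.87% of all genes; on the spike-in scale it did not pass, beside 0.241% of all genes. No snoRNA gene passed for the difference of slopes between KO and WT, where 3 had an unadjusted p under 0.05 by limma, 0 passed with voom weights, and 0.0356% of all genes passed. The host Rpsa was close to WT in dcIDR, at -0.01. Averaged over times, Snora62 was lower in dcIDR, with a difference of -0.26 ± 0.09 (adjusted p = 0.0311), or -0.07 without the 10 min libraries (adjusted p = 0.578). The call was lost without any of 7 single libraries (adjusted p up to 0.0781), and that of the slope difference without any of 5 (adjusted p up to 0.0879).

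Snord98, in an intron of Ccar1, had 1.5 and 0 RPM at 10 min in dcIDR, 2.20 and 4.16 in KO and 4.29 and 2.39 in WT. At 60 min it had 3.22 and 2.74 in dcIDR, 2.75 and 2.03 in KO and 3.50 and 2.63 in WT, and these groups overlap. On the relative scale both dcIDR libraries also lay below both WT libraries at 20 min (-0.36 on average) and 40 min (-0.39). The difference from WT was -0.76 ± 0.26 in dcIDR (adjusted p = 0.0338). Without the dcIDR library B at 10 min, the library with no read on Snord98, it was -0.45 (adjusted p = 0.0989), and without all 10 min libraries -0.26 (adjusted p = 0.323). The call was lost without any of 10 single libraries. Ccar1 was lower in dcIDR, with a difference of -0.28 (adjusted p = 4.84e-05).

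Snord71, in an intron of the adaptor gene Ap1g1 on chromosome 8, was the snoRNA gene that rose in KO cells. It had 1.5 to 3.08 RPM in dcIDR (median 2.57), 2.98 to 4.85 in KO (median 4.35) and 1.59 to 3.56 in WT (median 2.60). At 10 min the values were 1.5 and 1.92 in dcIDR, 3.01 and 4.56 in KO and 1.66 and 1.59 in WT, and at 40 min 2.73 and 2.42 in dcIDR, 4.85 and 4.40 in KO and 2.67 and 3.56 in WT. Both KO libraries lay above both WT libraries at 3 of the 4 times on the relative scale. KO differed from WT by 0.67 ± 0.16 (adjusted p = 0.00138) and dcIDR from KO by -0.73 ± 0.16 (adjusted p = 0.000367), whereas dcIDR differed from WT by -0.06 ± 0.16. Leaving out any single library kept both calls. Ap1g1 was higher in KO (0.30) and lower in dcIDR (-0.23) than in WT. The median of the 1108 tested genes of chromosome 8 was 0.33 in KO against WT and -0.46 in dcIDR against KO, so that Snord71 stood 0.34 above its chromosome in KO and differed from it by -0.27 in dcIDR against KO (SE 0.16 each). The part of the whole chromosome's shift in the Snord71 difference was not tested.

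Snord13 also lies on chromosome 8, and dcIDR differed from KO by -0.77 ± 0.26 (adjusted p = 0.018). The chromosome's median gene differed by -0.46 in that comparison, and Snord13 from this median by -0.31 (SE 0.26). The part of the chromosome's shift in the Snord13 difference was not tested either. The libraries held 0.537 to 4.99 RPM of Snord13 in dcIDR (median 1.08), 1.49 to 4.30 in KO (median 2.04) and 0.564 to 3.98 in WT (median 1.69). These ranges overlap, but they cover all labelling times. On the relative scale both dcIDR libraries lay below both KO libraries at 20 min (-1.60 on average) and 40 min (-1.80). They also lay below both WT libraries then, by -1.36 and -1.13. At 10 min (0.72 from KO) and 60 min (-0.40 from KO) dcIDR overlapped with both. Snord13 differed from WT by 0.33 ± 0.26 in KO, beside 0.33 for its chromosome's median, and by -0.44 ± 0.26 in dcIDR, and neither passed. Without the dcIDR library B at 60 min the dcIDR difference from KO was -0.53 (adjusted p = 0.08), and it also missed the threshold without the KO library B at 20 min or the dcIDR library B at 10 min.

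Between dcIDR and KO, 7 of the 43 genes passed, beside 45.2% of all tested genes (21.9% higher and 23.3% lower), 2 higher in dcIDR and 5 lower. That balance depended on the processing: with the 10 min libraries left out it was 5 higher to 3 lower, 4 of the 7 among them, and with a pseudocount of 4 there were 4 higher and 5 lower. Snord89, in an intron of the noncoding gene Gm15832, was higher in dcIDR by 1.09 ± 0.33 (adjusted p = 0.00899). It had 0.639 to 1.94 RPM in dcIDR (median 1.67), 0.135 to 1.43 in KO (median 0.582) and 0.265 to 1.66 in WT (median 1.06), and both dcIDR libraries lay above both KO libraries at all 4 times. These values rest on 2 to 41 reads per library in dcIDR, 2 to 27 in KO and 1 to 28 in WT. Its host Gm15832 was higher than WT in dcIDR (0.33) and in KO (0.46), so in KO the snoRNA, at -0.47 ± 0.33 (not passed), and the host, which passed, had opposite signs. Snora21 in Rpl23 was higher in dcIDR by 0.32 ± 0.12 (adjusted p = 0.0392) and Snora31 in Tpt1 lower, at -0.22 ± 0.09 (adjusted p = 0.0452). Snora21 lost its call without any of 10 single libraries and Snora31 without any of 15.

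**Figure D4:**
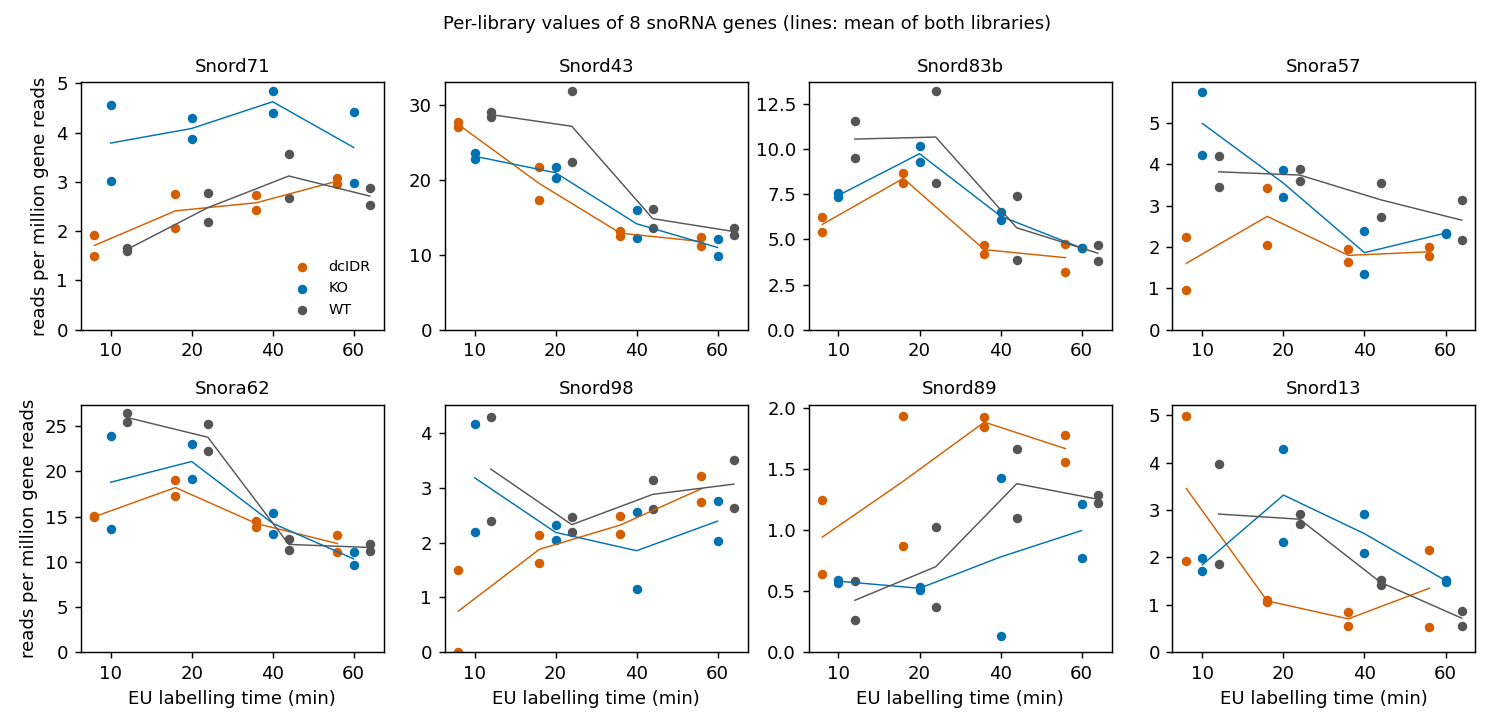
RPM (reads per 1000000 gene reads) of 8 snoRNA genes by EU labelling time in minutes; points are libraries, lines join the means of both, in dcIDR, KO and WT. Snord71 is highest in KO at each time on average, Snora57 lowest in dcIDR at 10 min, and Snord43 declines with time in all 3 genotypes.

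Of the 14 snoRNA genes in ribosomal protein hosts, 3 fell in dcIDR and 1 in KO. Of the 26 in other hosts, 1 fell in dcIDR and 1 rose in KO. Of all tested genes, 16.4% were lower in dcIDR, and 15.4% were higher and 16.7% lower in KO. Whether the host classes differed was not tested. The genes with most reads gave the smallest errors. Snord17 differed from WT by -0.01 ± 0.07 in dcIDR and by -0.02 ± 0.07 in KO, while its host Snx5 was lower in both, at -0.26 in dcIDR and -0.10 in KO. At 20 min Snord17 had 38 and 40.9 RPM in dcIDR, 37.8 and 39.9 in KO and 38.8 and 35.2 in WT, which overlap. Snora23 differed by -0.07 ± 0.08 in dcIDR and -0.08 ± 0.08 in KO. For 34 hosts of tested genes, 1 was higher and 11 lower in dcIDR, beside 27.8% of all genes that passed, and 2 were higher and 4 lower in KO, beside 32.1%. On the spike-in scale the hosts had 0 higher and 0 lower in dcIDR, beside 10.8% of all genes that passed. In KO they had 3 higher and 0 lower on that scale, beside 6188 of 22448 genes higher and 652 lower. Across the 39 pairs, member and host differences had a Pearson's r of 0.56 in dcIDR against WT and 0.13 in KO against WT, given as descriptions. By rank the relation was weaker, with a Spearman's rho of 0.35 in dcIDR and 0.04 in KO.

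The genes for proteins that bind, build and trim snoRNAs were counted in lists. Of the 4 box C/D core proteins, Nop56 (-0.21 ± 0.04) and Nop58 (-0.19 ± 0.04) were lower in dcIDR than in WT, beside 16.4% of all genes that were lower, and 0 passed in KO by limma (0 at an unadjusted p under 0.05). Neither call held on the spike-in scale, with Nop56 at -0.04 (adjusted p = 0.901) and Nop58 at -0.02 (adjusted p = 0.967). Both are also snoRNA hosts: Snord110 in Nop56 differed from WT by -0.09 ± 0.16 in dcIDR, and Snord11 and Snord70 in Nop58 by -0.03 ± 0.13 and 0.01 ± 0.13. Of the 4 box H/ACA core proteins, 0 passed in dcIDR (1 at an unadjusted p under 0.05, Gar1), and Nhp2 was higher in KO by 0.35 ± 0.10. Of 13 assembly factors in the table, 1 was higher and 4 lower in dcIDR, with Shq1, a chaperone of dyskerin, at -0.29 ± 0.06, and 4 were higher and 1 lower in KO, with the helicase Ruvbl1 at 0.37 ± 0.04 and Shq1 at 0.34 ± 0.06. Of 7 genes for trimming and decay, 0 were higher and 1 lower in dcIDR, with Tent4b, a poly(A) polymerase that tags nuclear RNA, at -0.26 ± 0.04, and 2 were higher and 1 lower in KO, with Tent4b at 0.42 ± 0.04 and the exonuclease Xrn2 at -0.40 ± 0.05. Of all genes, 27.8% passed in dcIDR (11.4% higher and 16.4% lower) and 32.1% in KO (15.4% higher and 16.7% lower). Of these 2 lists, 0 genes passed in dcIDR by limma on the spike-in scale, beside 10.8% of all genes. Shq1 was then at -0.12 (adjusted p = 0.669) and Tent4b at -0.09 (adjusted p = 0.773). In KO, 5 assembly factors and 5 trimming and decay genes were then higher and 0 lower, with Xrn2 at -0.09 (adjusted p = 0.649). On that scale 6188 of all 22448 tested genes were higher in KO and 652 lower, and the median gene was 0.30 higher. Tent4b and the assembly factor Naf1, which was higher in KO by 0.34 ± 0.06, lie on chromosome 8, where the median gene was 0.33 higher in KO. The part of a whole chromosome's shift in the differences of these genes, Ruvbl1, Shq1 or any other listed gene was not tested.

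With labelling time, 2 box C/D protein genes rose and 1 fell, 2 box H/ACA protein genes rose and 1 fell, 10 assembly factors rose and 1 fell, and 7 of 7 trimming and decay genes rose, beside 36.1% of all genes that rose and 19.7% that fell. Every gene of these 4 lists rose on the spike-in scale, beside 99.2% of all genes. Dis3 of the exosome had a slope of 0.25 ± 0.02 and the debranching enzyme Dbr1 one of 0.21 ± 0.03. Of 6 tested small noncoding RNA genes outside the rule, Scarna6 (-0.50 ± 0.19), Scarna9 (-0.44 ± 0.13) and Scarna2 (-0.33 ± 0.12), which guide modification in Cajal bodies, were lower in KO than in WT, beside 16.7% of all genes. On the spike-in scale 0 of the 6 were lower in KO, beside 652 of 22448 genes. In dcIDR 0 of the 6 passed on the relative scale (1 at an unadjusted p under 0.05 by limma, Scarna9). All 6 had negative differences in KO, with a median of -0.44, or -0.13 on the spike-in scale, and the median of the 43 snoRNA genes was -0.08, or 0.23 on the spike-in scale.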

How the data were processed

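Per the labels' protocols, EU-labelled RNA was captured by click chemistry after RNA of labelled Drosophila cells was added as a spike-in, and libraries were made with the SMARTer stranded total RNA kit. The submitters' processing notes list build GRCm39 and the tools HISAT2, Picard and SAMtools, without versions. Neither counting program, strand setting nor treatment of reads with several hits is named there. The authors deposited log2 ratios of each genotype at 20, 40 or 60 min to its 10 min libraries, spike-in scaled and with both libraries combined; the column prefix ki was read as dcIDR because it is the genotype left over. A second deposited table, of repeats, was not used here.

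Each ratio was solved for whole reads per library (mpmath 1.4.1), which gave a solution for 100% of the 44971 genes with values, with a constant of 40000 and spike-in reads known up to a common factor. The solver was tested on simulated data. Where several splits between both libraries were possible, the nearest to the pair's median was taken; 2834 genes stayed unclear and entered with their mean alone, none of them a snoRNA gene. Library A has more spike-in reads than library B, and replicate numbers are not known. Genes with 2 reads were 1.67 to 2.76 times as frequent as genes with 1, so mates may have been counted singly and precision overstated.

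Levels are reads scaled to 11714 spike-in reads, as log2(level + 1), which understates changes of low genes. Genes whose mean level reached 10, with reads in 6 libraries or more, were tested with limma 3.58.1 (R 4.3.3, trended prior), with 1 coefficient per genotype and time after subtracting each library's median over tested genes. Positions, hosts and sequences come from GENCODE M21 (GRCm38), not the files' build, so no coordinates are given. The snoRNA genes and the lists were chosen with earlier results of these data known. Genes are named by a rule: those past the threshold by size, the 8 with most reads, fixed names, hosts and members of the lists. The alternatives were the spike-in scale, filters, the pseudocount, voom weights, chromosomes or the 10 min libraries left out, each library left out, and, chosen after seeing the data, a prior without a trend. Some host genes and sequences are not reported here.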

Additional observations from a re-analysis of the deposited data

Results flagged for a closer look

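Snora62 is listed here because its slope with labelling time differed between genotypes by a test of the difference itself: by 0.39 per doubling between dcIDR and WT (adjusted p = 0.0272 by limma). The slope was -0.02 in dcIDR and -0.41 in WT. The difference was 0.31 without the 10 min libraries (adjusted p = 0.156) and 0.57 on the spike-in scale (adjusted p = 0.0939). Groups of 2 libraries are too small to look for single outlying libraries.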

How the results depend on the processing

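On the spike-in scale the count of snoRNA genes past the threshold was 0 for dcIDR against WT, 1 for KO against WT, 43 for the slope with labelling time and 0 for the slope difference of dcIDR from WT. There the 15 slopes that had been negative turned positive: Snord13 0.39, Snora69 0.41, Snord82 0.41, Snord43 0.43, Snora21 0.44, Snord72 0.47, Snord55 0.49, Snord83b 0.51, Snord118 0.52, Snord42b 0.55, Snora62 0.57, Snord15a 0.57, Snord17 0.59, Snord85 0.61 and Snora23 0.65, and the KO difference of Snord43 from WT turned to 0.046. Both follow from the scale, on which the median gene rises by 0.84 per doubling of time and is 0.30 higher in KO than in WT. With a mean level of at least 50, 22 snoRNA genes were tested, and the counts were 3 for dcIDR against WT, 1 for KO against WT, 3 for dcIDR against KO and 13 for the slope. Without chromosomes 4, 6, 8, 11 and X, 32 were tested, with 0 for KO against WT, 4 for dcIDR against KO and 13 for the slope; Snord71 and Snord13 are then left out. With no filter, dcIDR against KO had 4. Without the 10 min libraries the counts were 2 for dcIDR against WT, 1 for KO against WT, 8 for dcIDR against KO (4 shared with the 7), 19 for the slope (16 shared with the 23) and 0 for the slope difference of dcIDR from WT. That slope difference also had 0 with voom weights and with a prior without a trend, and under the latter dcIDR against WT had 3; the cause was not tested. Leaving out each of the 24 libraries in turn gave 2 to 5 for dcIDR against WT, 1 to 3 for KO against WT, 3 to 7 for dcIDR against KO, 19 to 23 for the slope, 0 to 2 for the slope difference of dcIDR from WT and 0 to 1 for that of KO from WT. A group with 1 library left is assumed to vary like the others. No paired analysis was possible because the libraries worked out from the ratios carry no replicate number. Depth was low for many snoRNA genes, with 24 of 49 averaging under 30 reads per library, and a missed threshold does not show equal levels.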
